A study of Mus musculus with 4 samples.

Results

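The 35 genes described here encode proteins of the mouse centromere and kinetochore. They were taken by symbol from a count table of 47937 genes, and every one of the 35 symbols was found in it. They fall into 4 groups by role. The constitutive centromere proteins (CENPs) gave 15 genes, the outer kinetochore 13, the factors that load CENP-A 3, and the chromosomal passenger complex 4.

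The libraries were made from total RNA of mouse embryonic fibroblasts (MEF cells), which are connective tissue cells grown from embryos. The study asked how these cells respond to genistein, a plant isoflavone that inhibits tyrosine kinases and topoisomerase II, and it followed in particular the transcripts of satellite repeats, which make up mouse centromeric and pericentromeric DNA. The untreated group held 2 libraries of wild-type cells and the genistein group held 2 libraries of cells exposed to 50 µM genistein for 24 h. For the exposed cells the genotype label repeats the treatment, and whether the untreated cells received solvent was not given for these libraries. All 4 libraries carry the same cell line label, MEF, and the labels do not say that the replicates were separate cultures. The p-values therefore measure the spread between these libraries, which may be technical. For each gene the test borrows part of this spread from the other genes and repeats.

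Centromeres are marked by nucleosomes that carry the histone H3 variant CENP-A in place of H3. On them sits the constitutive centromere-associated network of CENPs, and in mitosis this network recruits the outer kinetochore, whose Knl1, Mis12 and Ndc80 complexes bind spindle microtubules. New CENP-A is deposited after mitosis by its chaperone Hjurp, guided by the Mis18 complex, while the chromosomal passenger complex of Aurora B, Incenp, survivin and borealin corrects faulty attachments. Many of these genes are known to be transcribed mainly in G2 and mitosis, through CCAAT boxes and a cell cycle genes homology region (CHR) in their promoters, whereas genes of the G1/S transition are known for E2F sites.

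Promoters of 6 members are shown because these genes span the range of responses described below, and they were chosen after the values were seen. The sequences are from RefSeq on GRCm38.p6, 5′ to 3′ in the direction of the gene, and run from 250 bases before to 50 bases after the annotated start. Capitals mark every match on either strand to the CHR (TTTGAA) or its variant TTCGAA, to the CCAAT box (CCAAT) or to an E2F site (TTTCCCGC or TTTGGCGC). The windows are Hjurp (chr1:88277530-88277829, minus strand), Spc25 (chr2:69206164-69206463, minus strand), Cdca8 (chr4:124936868-124937167, minus strand), Cenpm (chr15:82244287-82244586, minus strand), Nuf2 (chr1:169531415-169531714, minus strand) and Cenpt (chr8:105851959-105852258, minus strand).
Hjurp: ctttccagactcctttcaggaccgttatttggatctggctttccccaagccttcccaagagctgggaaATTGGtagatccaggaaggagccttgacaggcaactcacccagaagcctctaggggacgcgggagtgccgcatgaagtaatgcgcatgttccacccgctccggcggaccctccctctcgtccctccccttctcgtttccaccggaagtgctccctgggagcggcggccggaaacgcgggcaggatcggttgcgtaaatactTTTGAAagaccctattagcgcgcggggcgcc
Spc25: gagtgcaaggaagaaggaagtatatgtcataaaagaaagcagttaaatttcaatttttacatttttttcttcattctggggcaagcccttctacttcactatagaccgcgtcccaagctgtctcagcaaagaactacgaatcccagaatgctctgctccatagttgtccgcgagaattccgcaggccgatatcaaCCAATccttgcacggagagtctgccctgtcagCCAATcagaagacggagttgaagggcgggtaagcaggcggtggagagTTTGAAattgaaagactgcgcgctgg
Cdca8: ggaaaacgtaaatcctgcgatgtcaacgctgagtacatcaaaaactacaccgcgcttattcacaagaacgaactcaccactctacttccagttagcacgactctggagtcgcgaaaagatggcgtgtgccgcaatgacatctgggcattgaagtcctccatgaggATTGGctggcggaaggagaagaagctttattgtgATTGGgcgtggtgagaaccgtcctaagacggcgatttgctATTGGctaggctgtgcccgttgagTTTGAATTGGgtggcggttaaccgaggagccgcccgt
Cenpm: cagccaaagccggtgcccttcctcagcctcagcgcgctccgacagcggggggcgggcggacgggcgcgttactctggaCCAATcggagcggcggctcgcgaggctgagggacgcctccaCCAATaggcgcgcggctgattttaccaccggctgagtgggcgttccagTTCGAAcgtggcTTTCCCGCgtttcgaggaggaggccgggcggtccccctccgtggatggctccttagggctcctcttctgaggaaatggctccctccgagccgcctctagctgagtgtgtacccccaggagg
Nuf2: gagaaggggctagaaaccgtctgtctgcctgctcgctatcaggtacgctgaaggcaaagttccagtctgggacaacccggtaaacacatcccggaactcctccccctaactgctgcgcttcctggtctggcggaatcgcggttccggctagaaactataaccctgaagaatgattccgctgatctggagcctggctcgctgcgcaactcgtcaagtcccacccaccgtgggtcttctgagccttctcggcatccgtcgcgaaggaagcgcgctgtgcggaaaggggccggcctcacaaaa
Cenpt: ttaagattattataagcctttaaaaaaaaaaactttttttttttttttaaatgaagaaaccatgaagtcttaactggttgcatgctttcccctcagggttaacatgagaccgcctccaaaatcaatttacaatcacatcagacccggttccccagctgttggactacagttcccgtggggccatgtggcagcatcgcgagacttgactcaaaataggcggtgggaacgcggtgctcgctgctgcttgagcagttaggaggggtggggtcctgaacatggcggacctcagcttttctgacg

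In the promoters of Hjurp, Spc25 and Cdca8 a CHR lay 19, 24 and 13 bases after the start, with 1 or more CCAAT boxes upstream of it. Hjurp and Spc25 rose and Cdca8 fell after genistein. In Cdca8 a further CCAAT box on the opposite strand overlapped the CHR. Cenpm, which fell, had the CHR variant 83 bases and an E2F site 71 bases before the start. The windows of Nuf2, which fell, and of Cenpt, which rose, held none of these motifs. Of the 35 members, 31 had a promoter window, and the missing ones were Nsl1, Spc24, Aurkb and Incenp. A CHR was found in 13 of these 31 genes, in 5 of the 15 that fell, 3 of the 5 that rose and 5 of the 11 that were not called. The members' 34 windows held a CHR in 41.2% and a CCAAT box in 70.6%, against 17.9% and 37.4% of all 32851 mouse promoter windows of the same length. Bub3 and Cenpk gave more than 1 window each, and those of Bub3 overlapped. By gene, a CHR was in 13 of 31 members and 20.2% of all 27025 genes. A CCAAT box was in 21 of 31 members and 41.1% of all genes. E2F sites were found in 11.8% of the members' windows and 1.56% of all windows. A match is a stretch of letters, not a measured binding site.

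The libraries held 28591958 to 31464284 counts, and the lowest count of any member in a library was 197. A normalised count is a count scaled to a library of average effective size, with edgeR's TMM factors, and a log2 fold change is the fitted log2 ratio of genistein over untreated. Entries with too few counts in both groups were filtered out before the test. Across the 17358 tested genes and repeats, the log counts of the libraries of a group correlated at r = 0.994 in both groups, and between groups at 0.956 to 0.960. The share of counts on mitochondrially encoded genes was 2.07% and 1.96% in the untreated and 3.30% and 3.14% in the genistein libraries, and the share on repeats was 12.0% and 12.5% against 14.6% and 13.6%. Of 10 fibroblast markers 8 passed this filter, and the summed normalised count of the 10 ranged from 280767 to 283896 in the untreated and from 234976 to 239152 in the genistein libraries. Of the 8 that passed, 7 fell and Dcn rose (log2 fold change 1.08). Thy1 was at 0 in all libraries and Lum had at most 10 counts. The summed normalised count of 5 blood and macrophage markers was 210 and 192 in the untreated and 550 and 574 in the genistein libraries, with Adgre1 at 0 and Ptprc at 0 or 1 count, and nearly all of it Cd68 and Csf1r. Skeletal muscle markers (4 genes, with Myod1 and Myf5 at 0 and Myog at 0 or 1 count) summed to 37.0 and 29.6 against 284 and 264, nearly all of it Des, and endothelial markers (4 genes) to 25.0 and 30.7 against 85.3 and 97.2, mostly Kdr. Epithelial markers (5 genes, with Epcam at 0) summed to 506 and 511 against 168 and 168, and neural markers (4 genes, with Sox2 and Sox10 at 0) to 1328 and 1212 against 1113 and 1047. The part of these measures in the results below was not tested. In such bulk RNA, more or fewer cells in a cell cycle phase and more or less RNA per cell cannot be told apart.

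After genistein, 19 of the 35 centromere and kinetochore genes were lower, 5 were higher and 11 did not pass the test. Calls were made by the quasi-likelihood test of edgeR at a p-value under 0.05 after Benjamini-Hochberg adjustment over every tested entry. All 35 members passed the filter on low counts. Over all 16240 genes tested, 38.2% were called lower and 33.5% higher, 71.7% in either direction. Among the 10335 genes with a mean normalised count over 200, a level that every member exceeded, 49.8% were lower and 31.7% higher, 81.5% in either direction. The share of members that fell, 54.3%, was thus near that of genes at this depth, and the share that rose, 14.3%, was smaller. The median log2 fold change was -0.18 over the members, -0.03 over all genes and -0.13 over genes above this count, and the members' median was -0.11 with library totals alone.

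The changes were small. No member passed the thresholds of the study's methods (mean normalised count over 100, adjusted p under 0.05 and a log2 fold change beyond 1 in either direction). These were passed by 8.08% of all genes, 4.16% lower and 3.92% higher. No member's 95% interval reached a log2 fold change of 1 in either direction, and the median absolute log2 fold change was 0.26 over the members and 0.44 over all genes. Against a null of a 1.5-fold change, Zw10, Aurkb and Cenpm were called lower and no member higher, where 11.7% of all genes were lower and 12.1% higher (23.7% in either direction). In 28 of the 35 genes the untreated and genistein libraries did not overlap, 21 of them lower and 7 higher, against 85.3% of all genes (44.6% lower and 40.7% higher). The summed normalised count of the members was 76975 ± 407 (SD, n = 2) in the untreated and 75097 ± 547 (SD, n = 2) in the genistein libraries, a difference of -2.44% that was not tested.

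**Figure D1:**
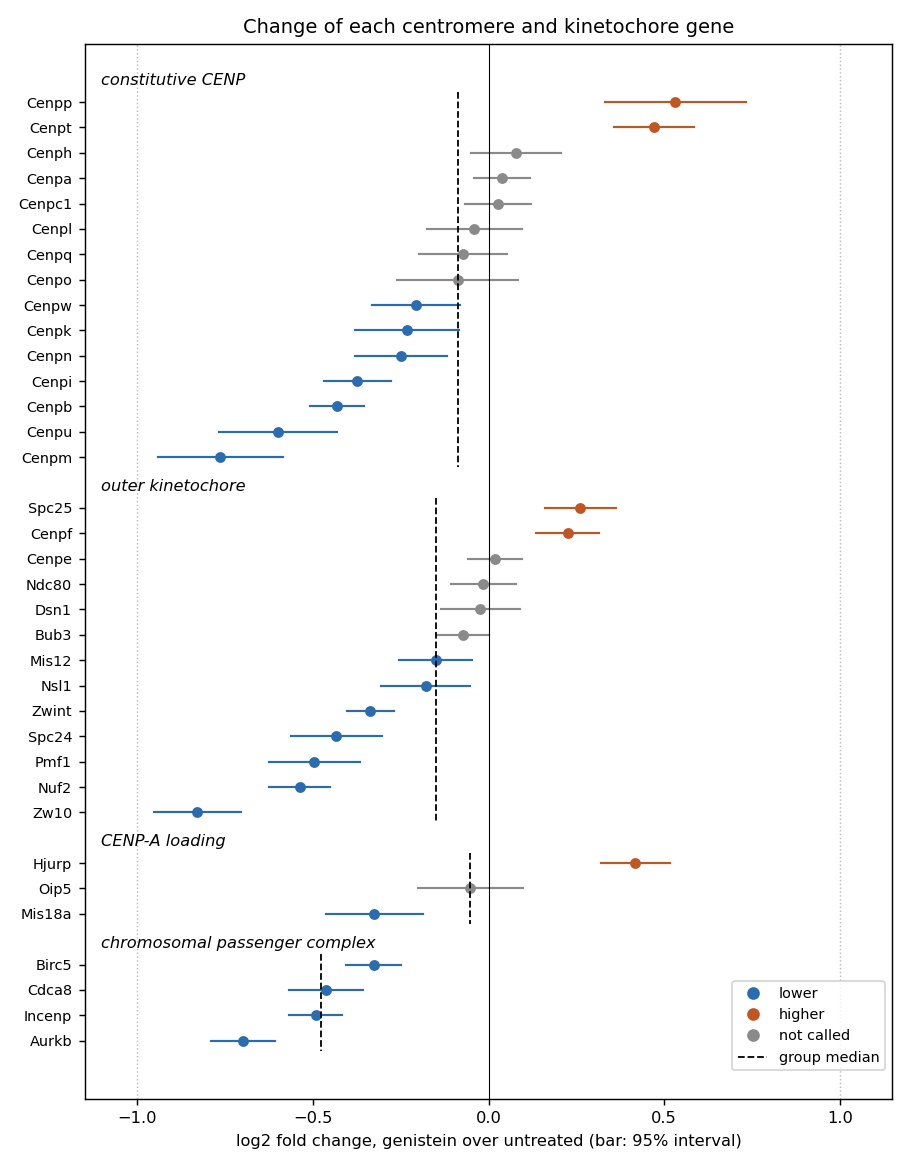
Log2 fold change of each of the 35 genes (x axis, genistein over untreated), grouped by role, with points for the estimates, bars for 95% intervals and dashed lines for the median of each role. Points left of 0 are lower after genistein: all 4 chromosomal passenger genes are there, and Hjurp, Cenpt, Cenpp, Spc25 and Cenpf are the 5 called higher.

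The chromosomal passenger complex was the role in which every gene fell: 4 of 4 were called lower, with a median log2 fold change of -0.48. Of genes with a mean normalised count over 200, 49.8% were called lower. Aurkb encodes Aurora B, the kinase of the complex (ENSMUSG00000020897, chr11:69045647-69051664 on GRCm38). Its normalised count was 2485 and 2342 without genistein and 1489 and 1485 with it. The genistein libraries nearly coincided and lay well below both untreated ones, and Aurkb fell by 38.4% (log2 fold change -0.70 ± 0.04 (SE), adjusted p 3.3e-10). Incenp, the scaffold that activates Aurora B, had 3463 and 3391 against 2447 and 2424 (log2 fold change -0.49 ± 0.04, adjusted p 2.7e-09). Cdca8, which encodes borealin, had 1826 and 1683 against 1268 and 1279 (log2 fold change -0.46 ± 0.05, adjusted p 3.2e-07). Birc5, which encodes survivin, the subunit that reads the phosphorylated histone H3 tail, had 2772 and 2721 against 2169 and 2211 (log2 fold change -0.33 ± 0.04, adjusted p 7.1e-07). In none of the 4 genes did the groups overlap, and neither did they in 85.3% of all genes. Their summed normalised count was 10342 ± 290 (SD, n = 2) in the untreated and 7386 ± 18.4 (SD, n = 2) in the genistein libraries, a difference of -28.6%.

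The CENP-A loading factors split. Hjurp, the chaperone that carries CENP-A to centromeres (ENSMUSG00000044783, chr1:88262471-88277633), had 12564 and 12781 normalised counts in the untreated and 17123 and 16744 in the genistein libraries. It was the most abundant member in every library, and both genistein libraries lay above both untreated ones, with a log2 fold change of 0.42 ± 0.05 (SE), an adjusted p of 4.7e-07 and an increase of 33.6%. Mis18a, a subunit of the complex that licenses loading, had 608 and 587 against 474 and 481 (log2 fold change -0.33 ± 0.06, adjusted p 0.00029). Oip5, which encodes the partner subunit Mis18-beta, had 539 and 505 against 483 and 526, and these libraries overlapped (log2 fold change -0.05 ± 0.07, adjusted p 0.52). Opposite-strand exons of Nusap1, a spindle gene whose log2 fold change was 0.53, covered 9.67% of the exon bases of Oip5. Over the 3 loading factors the median log2 fold change was -0.05, and it was 0.02 when libraries were scaled by their totals alone or when genistein replicate 1 was left out. Hjurp alone took 16.3% and 16.7% of the members' counts in untreated cells and 22.9% and 22.2% after genistein. Without it the summed normalised count of the other 34 genes was 64303 ± 560 (SD, n = 2) against 58164 ± 816 (SD, n = 2), a difference of -9.55%.

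CENP-A itself, the protein that Hjurp loads, was encoded by a transcript near its untreated level. Cenpa had 2977 and 3110 normalised counts in the untreated and 3066 and 3180 in the genistein libraries. The libraries overlapped, with a log2 fold change of 0.04 ± 0.04 (SE), a 95% interval from -0.04 to 0.12 and an adjusted p of 0.38. When libraries were scaled by their totals alone, Cenpa was called higher at a log2 fold change of 0.11. The ratio of Hjurp to Cenpa per kilobase of exon was 2.97 and 2.89 untreated and 3.93 and 3.70 after genistein.

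**Figure D2:**
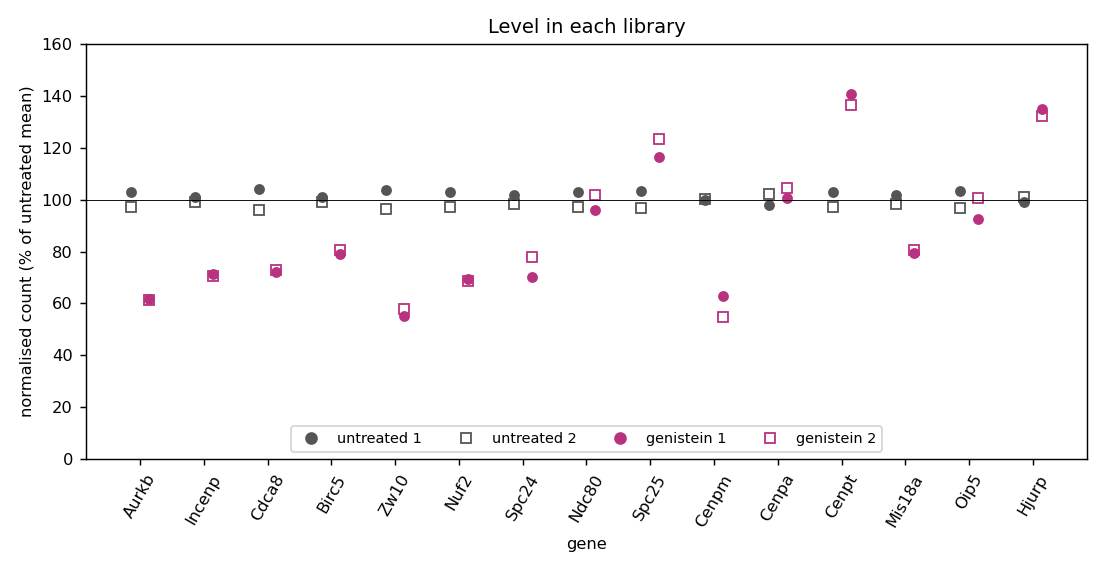
Normalised count of 15 of the genes in each of the 4 libraries (y axis, percent of the untreated mean of that gene; circles for replicate 1, squares for replicate 2, grey for untreated and magenta for genistein). The chromosomal passenger genes, Zw10, Nuf2, Spc24, Cenpm and Mis18a lie below the line at 100, Spc25, Cenpt and Hjurp above it, and for Ndc80, Cenpa and Oip5 the groups overlap.

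Among the 15 constitutive CENPs, 7 fell, 2 rose and 6 did not pass the test (46.7% lower and 13.3% higher). Of genes with a mean normalised count over 200, 49.8% were lower and 31.7% higher, so the share that fell was near theirs. The median log2 fold change of the 15 genes was -0.09. This median was -0.19 without untreated replicate 2, -0.049 without genistein replicate 1, -0.045 with TMM factors from genes alone and -0.019 with library totals alone. The largest decrease was that of Cenpm, a subunit of the CENP-H/I/K/M module of the inner kinetochore (ENSMUSG00000068101, chr15:82233779-82244748). It had 470 and 471 normalised counts in the untreated and 295 and 257 in the genistein libraries (log2 fold change -0.76 ± 0.08, adjusted p 4.8e-07). In the same module Cenpi fell by 0.37 and Cenpk by 0.23 on the log2 scale, the latter not called in DESeq2. Cenph had 680 and 638 against 698 and 695, with no overlap between groups but an adjusted p of 0.25 (log2 fold change 0.08 ± 0.06). With library totals alone Cenph was called higher at 0.15.

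Cenpu, which helps to dock the kinase Plk1 at centromeres, had 505 and 509 against 355 and 313 normalised counts (log2 fold change -0.60 ± 0.08, adjusted p 3.8e-06). Opposite-strand exons of Primpol covered 26.7% of the exon bases of Cenpu, and Primpol rose by 0.95 on the log2 scale, the opposite direction. Cenpp, of the same CENP-O/P/Q/U module, rose from 227 and 209 to 306 and 325 (log2 fold change 0.53 ± 0.09, adjusted p 9.5e-05), and 12.3% of its exon bases lay under opposite-strand exons of Ippk, whose log2 fold change was -0.29. Both changes had the opposite sign to those of the overlapping genes. For Oip5 and Nusap1, given above, the signs were opposite too, while for Cenpk and Mis12 they were the same. Opposite-strand exons of Ppwd1 (log2 fold change -0.27) covered 4.45% of the exon bases of Cenpk. Those of Derl2 (-0.06, not called) covered 7.69% of Mis12. The part of reads from overlapping genes in these counts was not tested. The kit kept strand, but the strand setting of the counting was not given. Cenpo had 485 and 419 against 416 and 436 (log2 fold change -0.09 ± 0.08, adjusted p 0.33) and Cenpq 758 and 754 against 697 and 742 (log2 fold change -0.07 ± 0.06, adjusted p 0.28). Cenpo shared 22.5% of its exon bases with opposite-strand genes, mostly with Adcy3.

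Cenpt, whose product bridges centromeric DNA to the Ndc80 complex (ENSMUSG00000036672, chr8:105844673-105853278), rose from 902 and 852 to 1233 and 1198 normalised counts. The groups were well apart (log2 fold change 0.47 ± 0.05, adjusted p 8.2e-07). Its histone-fold partner Cenpw fell by 0.21 on the log2 scale (adjusted p 0.0052), a call that was lost with library totals alone and in DESeq2. The ratio of Cenpw to Cenpt per kilobase was 0.67 and 0.73 in the untreated and 0.43 and 0.44 in the genistein libraries.

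Cenpb encodes the protein that binds the CENP-B box in minor satellite DNA. It had 3257 and 3200 normalised counts in the untreated and 2356 and 2435 in the genistein libraries (log2 fold change -0.43 ± 0.04, adjusted p 2.0e-08). Cenpc1, which encodes CENP-C, the platform between CENP-A nucleosomes and the outer kinetochore, had 1493 and 1523 against 1550 and 1524 (log2 fold change 0.03 ± 0.04, adjusted p 0.59). In Cenpc1 both genistein libraries were above the untreated ones, the closest by less than the distance within either group. Cenpn, which reads the CENP-A nucleosome together with Cenpl, fell by 0.25 on the log2 scale, while Cenpl had 581 and 556 against 545 and 562 (log2 fold change -0.04 ± 0.06, adjusted p 0.58).

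Of the 13 outer kinetochore genes, 7 fell, 2 rose and 4 did not pass the test (53.8% lower and 15.4% higher). The share that fell was near the 49.8% of genes with a mean normalised count over 200, of which 31.7% rose. The median log2 fold change of the 13 genes was -0.15 (-0.081 with library totals alone). Zw10, a subunit of the Rod-Zw10-Zwilch (RZZ) complex that brings dynein and the spindle checkpoint to kinetochores, had the largest decrease of the 35 genes (ENSMUSG00000032264, chr9:49055613-49078775). It had 1260 and 1172 normalised counts in the untreated and 669 and 701 in the genistein libraries, and fell by 43.7% (log2 fold change -0.83 ± 0.06, adjusted p 2.3e-09). Of all genes tested, 10.2% had a log2 fold change at or below that of Zw10. Zw10 also serves in vesicle transport between the Golgi and the endoplasmic reticulum. The other subunits of the complex, which were not among the 35 genes, rose: Kntc1, which encodes Rod, from 2851 and 2843 to 3198 and 3255, and Zwilch from 1523 and 1546 to 1819 and 1847 (log2 fold change 0.18 ± 0.03 and 0.26 ± 0.04, adjusted p 0.00022 and 4.4e-05).

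The Ndc80 complex, the microtubule-binding rod of the kinetochore, pairs Ndc80 with Nuf2 at its outer end and Spc24 with Spc25 at its inner end, and its subunits did not share a direction of change. Nuf2 (ENSMUSG00000026683, chr1:169497934-169531464) fell from 2828 and 2663 to 1901 and 1882 normalised counts (log2 fold change -0.54 ± 0.04, adjusted p 5.0e-09). Ndc80 had 2105 and 1990 against 1969 and 2086, and these overlapped (log2 fold change -0.02 ± 0.04, adjusted p 0.77). The Nuf2 to Ndc80 ratio per kilobase was 1.38 and 1.37 in the untreated and 0.99 and 0.92 in the genistein libraries.

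Spc24 fell from 1027 and 991 to 710 and 786 normalised counts (log2 fold change -0.43 ± 0.06, adjusted p 9.0e-06), whereas Spc25 (ENSMUSG00000005233, chr2:69193895-69206194) rose from 1569 and 1468 to 1769 and 1876 (log2 fold change 0.26 ± 0.05, adjusted p 0.00013). The Spc24 to Spc25 ratio per kilobase was 0.81 and 0.84 against 0.50 and 0.52. For each subunit ratio given here the untreated and genistein libraries did not overlap, and the exact two-sided permutation p was 0.33, the smallest that 2 libraries against 2 can give.

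In the Mis12 complex, which links the inner kinetochore to Ndc80, Pmf1 fell from 812 and 759 to 553 and 562 normalised counts (log2 fold change -0.50 ± 0.06, adjusted p 2.0e-06). Nsl1 and Mis12 had smaller decreases, with log2 fold changes of -0.18 and -0.15 and adjusted p-values of 0.013 and 0.011. Both calls were lost with TMM factors from genes alone, with library totals alone, in DESeq2 and without genistein replicate 2 (log2 fold changes -0.13 and -0.11), and that of Nsl1 also without untreated replicate 1 (-0.15). Dsn1 had 1115 and 1097 against 1056 and 1122 (log2 fold change -0.02 ± 0.05, adjusted p 0.70). Zwint, which ties Knl1 to the RZZ complex, fell by 0.34 on the log2 scale from a high level, 5483 ± 24.2 (SD, n = 2) to 4343 ± 64.6 (SD, n = 2) normalised counts.

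Of the corona and checkpoint genes, 1 of 3 passed the test, against 81.5% of genes with a mean normalised count over 200. Cenpf, a farnesylated protein of the nuclear matrix and corona, rose from 8178 and 8456 to 9550 and 9889 normalised counts (log2 fold change 0.22 ± 0.04, adjusted p 0.00018). Cenpe, the kinesin that carries chromosomes to the metaphase plate, had 6551 and 6826 against 6701 and 6857 (log2 fold change 0.02 ± 0.04, adjusted p 0.64). Bub3, which anchors the checkpoint kinases, had 3862 and 3728 against 3618 and 3599 (log2 fold change -0.07 ± 0.03, adjusted p 0.068). The Cenpe libraries overlapped and the Bub3 libraries did not, and Bub3 was called lower without untreated replicate 2 (log2 fold change -0.10).

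**Figure D3:**
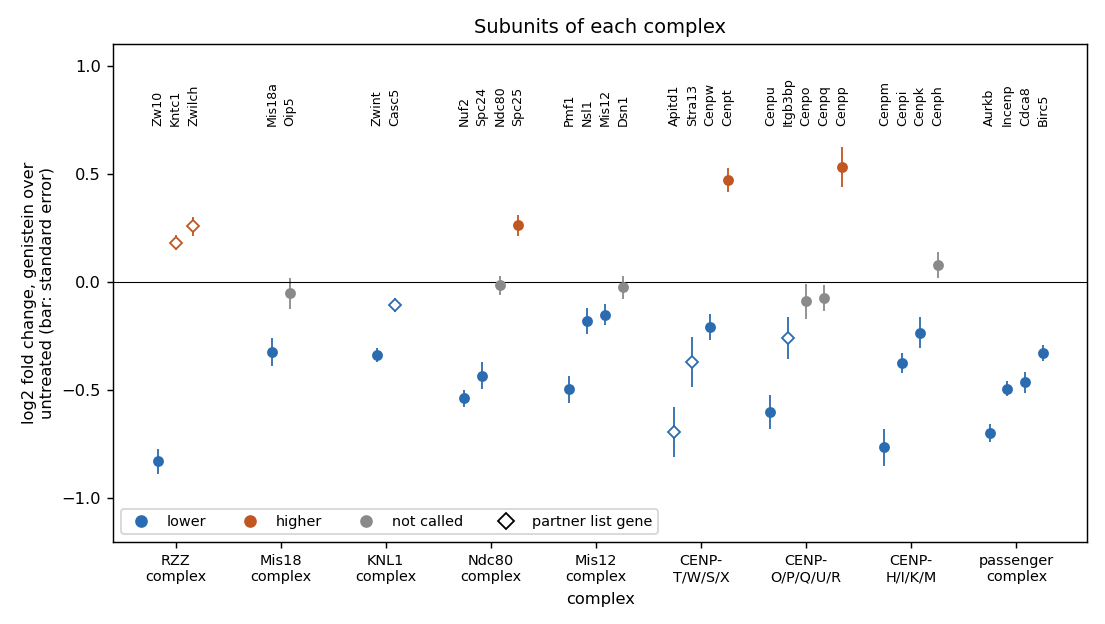
Log2 fold change of the subunits of 9 complexes (y axis, genistein over untreated; points for estimates, bars for standard errors, open diamonds for subunits outside the 35 genes). The subunits of the passenger, KNL1, Mis12 and Mis18 complexes lie below 0. Those of the RZZ, Ndc80, CENP-H/I/K/M, CENP-T/W/S/X and CENP-O/P/Q/U/R complexes lie on both sides of 0, in CENP-H/I/K/M only through Cenph, which was not called.

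Within a complex the distance between the highest and the lowest log2 fold change was 0.37 for the 4 chromosomal passenger genes, 0.47 for the Mis12 complex, 0.27 between Mis18a and Oip5 and 0.23 between Zwint and Casc5 (Knl1). All subunits shown of these complexes had log2 fold changes below 0, but Dsn1 and Oip5 were not called and were above 0 with library totals alone. It was 0.80 for the Ndc80 complex, 0.84 for CENP-H/I/K/M, 1.09 for the RZZ complex, 1.13 for CENP-O/P/Q/U with Itgb3bp (CENP-R) and 1.16 for CENP-T/W with Apitd1 (CENP-S) and Stra13 (CENP-X). The last value was set by Cenpt on the one side and Apitd1, at a log2 fold change of -0.69 ± 0.12 (adjusted p 5.4e-05), on the other. Such a distance tends to be larger where more subunits are counted. The Mis18 and KNL1 complexes had 2 subunits here, RZZ 3, CENP-O/P/Q/U/R 5 and the rest 4. Other gene sets of these sizes were not compared.

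Levels were compared between genes as normalised counts per kilobase of exon. In the untreated libraries Hjurp was first at 1521 ± 18.4 (SD, n = 2) per kilobase, Zwint followed at 1237 ± 5.45 and Cenpo was last at 62.3 ± 6.45. Aurkb, Birc5, Incenp and Cenpe came next after Zwint, between 776 and 819 per kilobase, and each overlapped its neighbour in the order. Of the 34 pairs of neighbours in the untreated order, 12 overlapped. By role, the median level was 799 per kilobase for the passenger genes, 433 for the outer kinetochore, 294 for the loading factors and 241 for the constitutive CENPs. In the genistein libraries the passenger genes had a median of 534 per kilobase and Hjurp reached 2033 ± 32.2 (SD, n = 2). Cenpt moved from rank 25 to rank 14, the largest shift in the order. The exon length is that of all annotated transcripts of a gene together, which lowers the level per kilobase of a gene with long minor transcripts.

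**Figure D4:**
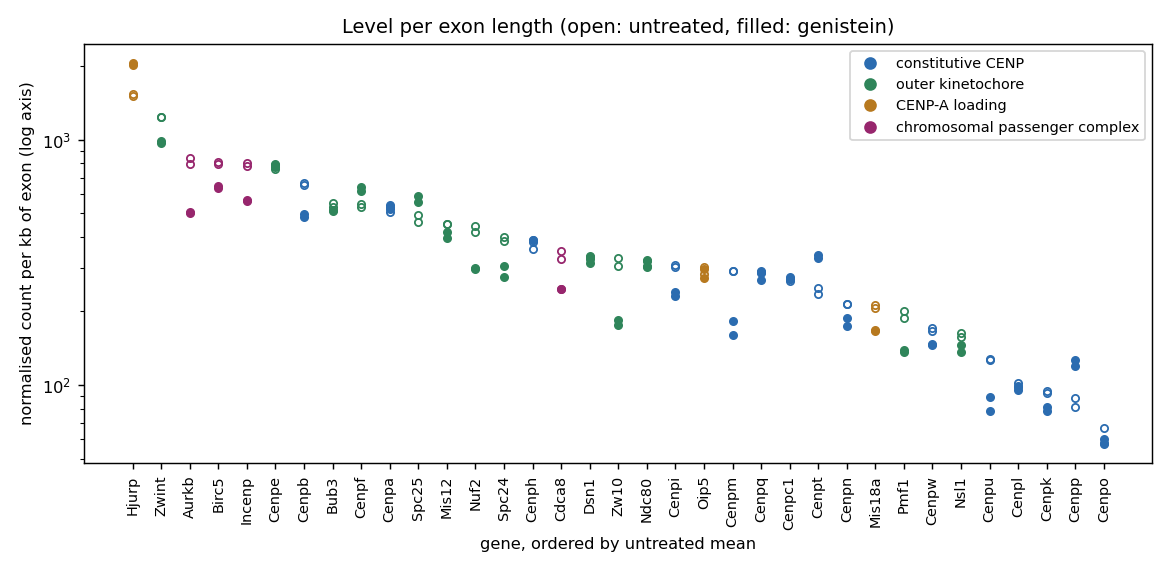
Normalised count per kilobase of exon of the 35 genes (y axis, log scale), ordered by the untreated mean and coloured by role, with open circles for the 2 untreated and filled circles for the 2 genistein libraries. Hjurp is first in both groups, and the filled circles of Aurkb, Nuf2, Zw10 and Cenpm lie clearly below the open ones.

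A list of 35 further genes of the kinetochore, the spindle checkpoint and CENP-A chromatin held 25 that fell, 5 that rose and 5 that did not pass. Their median log2 fold change was -0.28. This was 71.4% lower and 14.3% higher, against 38.2% and 33.5% of all genes. Among genes with a mean normalised count over 200 the shares were 49.8% and 31.7%. The largest decreases were those of Trip13, which resets the checkpoint protein Mad2 and had 1685 and 1541 against 727 and 704 normalised counts, of Npm1, a histone chaperone of the nucleolus, and of Ssrp1, a subunit of the FACT complex that reorganises nucleosomes (log2 fold changes -1.17, -1.12 and -1.11). These 3 passed the study's thresholds, as did 4.16% of all genes in the lower direction. Supt16, the other FACT subunit, fell by 0.92, the chromatin remodeller Smarca5 by 0.82 and Rbbp7, a histone-binding protein that also escorts CENP-A, by 0.72 on the log2 scale. FACT, Npm1, Rbbp7 and Smarca5 serve chromatin throughout the nucleus as well as at centromeres. The called increases were led by Clasp1, a microtubule plus-end protein (3843 and 3853 against 5350 and 5414, log2 fold change 0.48), and by Sgol2a, the shugoshin that protects centromeric cohesion (0.26), followed by Zwilch and Kntc1.

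Lists of cell cycle genes stood beside the members as follows. Of 23 G1/S genes 22 fell and 1, E2f1, rose (log2 fold change 0.65), and the median was -0.57. Of 20 G2/M genes 10 fell, 6 rose and 4 did not pass, and the median was -0.11 (-0.035 with library totals alone). Of genes with a mean normalised count over 200, 49.8% were lower and 31.7% higher, near the shares of the G2/M genes. Among the G2/M genes Ccna2 fell by 0.79 and Kif20a, the kinesin that relocates the passenger complex in anaphase, rose by 0.32 on the log2 scale. The paper reports, from flow cytometry of DNA content, that the same dose and time moved most MEF cells into G2/M. The part of a changed cell cycle distribution in the members' changes was not tested.

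**Figure D5:**
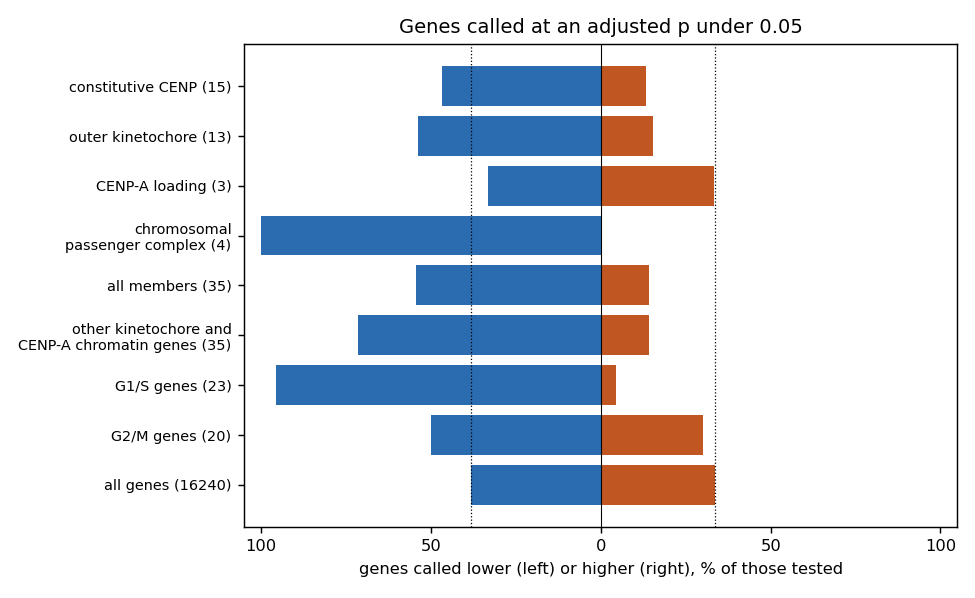
Share of genes called lower (left, blue) and higher (right, orange) in each list (x axis, percent of the genes tested, whose number is in brackets), with dotted lines at the shares of all genes, 38.2% lower and 33.5% higher. The bars of the passenger complex and of the G1/S genes reach furthest to the left, at 4 of 4 and 22 of 23 genes, and that of the CENP-A loading factors is even, at 1 lower and 1 higher of 3. Among genes with a mean normalised count over 200 the shares were 49.8% lower and 31.7% higher.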

How the data were processed

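Total RNA libraries (ribosomal RNA depleted, TruSeq Stranded) from untreated and genistein-exposed MEF cells, 2 of each, were analysed. The authors trimmed paired reads of 150 bp with Trim Galore, aligned them to mm10 (GRCm38) with STAR and counted genes (Gencode) and repeats with TEtranscripts, and deposited raw whole-number counts. Sources used here do not state the strand setting. An entry that names no gene (0.0021% to 0.0031% of counts) was left out, and no value column was left unused.

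Counts of genes and repeats were filtered (filterByExpr), scaled by TMM and fitted with edgeR 4.0.16 (R 4.3.3, quasi-likelihood), with Benjamini-Hochberg adjustment over 17358 entries. Normalised counts are counts scaled to the mean effective library. Coordinates and exon lengths are those of GENCODE M21, a later release than the one the paper names for counting. Levels per kilobase and shares of exon bases therefore mix annotations. The fit was run on simulated counts in which few entries changed, equally in both directions, whereas 71.7% of genes were called here. That run cannot show how the scaling behaves under such broad change. Genes were named by a rule (the 3 strongest decreases and increases of each role, and every gene not called); Spc24, Mis12, Nsl1, Zwint, Cenpi, Cenpk, Cenpn and Cenpw were added after their values were seen. The members and lists were chosen with earlier results of these data known. Alternatives were other scalings, no filter, DESeq2 1.42.0, a replicate block, other thresholds and leaving out each library.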

Additional observations from a re-analysis of the deposited data

How the results depend on the processing

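Every member called higher stayed so under all 10 alternative fits, and so did the decreases of the passenger genes, Zw10, Nuf2, Cenpm, Cenpu and Cenpb. Members called lower numbered 15 to 20 and members called higher 5 to 7. Under library totals alone 16 were lower and 7 higher, the additions being Cenpa and Cenph, and under DESeq2 15 were lower and 5 higher. The calls of Nsl1 and Mis12 were lost with TMM factors from genes alone (adjusted p 0.0501 and 0.059), with library totals and in DESeq2, that of Cenpw with library totals and in DESeq2, and that of Cenpk in DESeq2 (adjusted p 0.081). Bub3 was called lower with RLE size factors and with no filter (adjusted p 0.046 and 0.021). The causes were not tested. Members never called changed sign: Cenpl (0.0029), Ndc80 (0.028) and Dsn1 (0.020) when TMM used genes alone, Cenpl (0.029), Ndc80 (0.055), Dsn1 (0.046) and Oip5 (0.018) with library totals, and Cenpe (-0.0066) with no filter. Leaving out a library gave log2 fold changes of -0.059 to 0.032 for Ndc80, -0.066 to 0.025 for Dsn1, -0.19 to 0.018 for Cenpo, -0.015 to 0.045 for Cenpe and -0.11 to 0.016 for Oip5. Of the list medians, those of the constitutive CENPs (RLE -0.098, gene-based TMM -0.045, library totals -0.019, unfiltered -0.11, DESeq2 -0.096) and of the further kinetochore genes (-0.29, -0.23, -0.21, -0.30 and -0.29 in the same order) moved by more than the spread between replicates. With factors from genes alone and with library totals this also held for the passenger complex (-0.43 and -0.41) and the G1/S genes (-0.52 and -0.50), and with library totals for all members (-0.11), the outer kinetochore (-0.081), the loading factors (0.018) and the G2/M genes (-0.035). Leaving out a library gave medians of -0.19 to -0.049 for the constitutive CENPs, -0.52 to -0.44 for the passenger complex, -0.11 to 0.016 for the loading factors and -0.29 to -0.24 for the further kinetochore genes. Against a null of a 1.5-fold change 3 members (and 11.7% of all genes) were lower, where none passed the fold threshold of 1 on the log2 scale. The median of all genes lay between -0.04 and 0.04 under every scaling. Subunit ratios change in the same way with or without division by length, by construction. Replicate numbers are shared between the groups in the labels, but same-numbered libraries did not deviate together (r = -0.03 over all entries and -0.28 over the members). The replicate block left 19 members lower and 5 higher. Of the members not called, Cenpo had the widest 95% interval of the log2 fold change, from -0.26 to 0.08. A library left alone in a group was assumed to vary like the other group.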
